A study of Astyanax mexicanus with 26 samples.

Results

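The regions described here are stretches of liver chromatin in the Mexican tetra, *Astyanax mexicanus*, that carried a broad domain of H3K27me3 and no broad domain of H3K4me3. They were chosen from the deposited peak lists. H3K27me3 peaks at most 1 kb apart were joined within each morph, joined domains of 4000 bp or more were called broad, and overlapping broad domains of the 3 morphs were merged into loci. Loci meeting an H3K4me3 domain of 4000 bp or more in any morph, joined in the same way, were set aside. This left 635 loci out of 121674 H3K27me3 loci of any width, of which 715 were broad and set aside for broad H3K4me3 and 120324 were under 4000 bp in every morph. Of the 635, 417 lay on placed chromosomes and 218 on unplaced scaffolds. Because H3K27me3 width and broad H3K4me3 chose the members, their values for these properties are a description only. H3K27ac was not used in the choice.

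The study profiled adult livers of the river-dwelling surface fish and of the Pachon and Tinaja cave fish by chromatin immunoprecipitation and sequencing, with antibodies against H3K27me3, H3K4me3 and H3K27ac. There were 2 libraries of each mark from each morph, and 3 where Tinaja was profiled for an active mark. Each of the 9 combinations of morph and mark came as 1 peak list. The groups differ by fish type, and the labels used here name no treatment, sex or number of animals behind a library. The tissue was whole liver, so fewer cells carrying a mark and less of the mark per cell cannot be told apart.

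H3K27me3 is laid down on histone H3 by Polycomb repressive complex 2, whose catalytic subunit is EZH2 or EZH1. In vertebrates its wide domains are best known at developmental regulator genes that a tissue keeps silent, and many of those promoters also carry H3K4me3, a mark of promoters. Acetylation and methylation of the same lysine 27 exclude each other on a single histone tail. Where both are present on the same bases of a tissue sample, they therefore sit on different histone tails. Listed peaks at the same place do not by themselves show this, and total chromatin was not analysed here.

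Since each morph and mark had a single list, values have no replicate error and no difference between morphs was tested. Intervals are exact binomial at 95% and cover counting error only, and neighbouring loci are not independent. The H3K27me3 lists were of similar length, with 97948 peaks for surface fish, 98198 for Pachon and 99370 for Tinaja. H3K4me3 lists had 56323, 64432 and 136219 peaks and H3K27ac lists 70089, 93527 and 117125 in the same order, so a longer list alone can raise the cover of a cave morph. Where the order of morphs matters, values are therefore also given with the lists of a mark cut to the length of the shortest, keeping the widest peaks (called equal lists). This cut equalises the number of peaks and not the bases they cover. The shortest list keeps its narrow peaks and longer lists keep only their widest, so cover can still favour a longer list. Read depth is unknown, and the H3K27me3 libraries of all morphs share a number in the labels. Libraries of the active marks carry other numbers, and none of these is common to surface fish and a cave morph. Some active-mark libraries of Pachon and Tinaja share a number. For these marks, a difference between surface fish and the caves therefore cannot be told apart from a difference between numbers. What the number stands for is not stated. No gene could be placed at a locus, because the gene table at hand follows another assembly.

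Surface fish had the most of these loci, and most loci were broad in fewer than 3 morphs. In surface 390 of the 635 loci were broad (61.4%), in Pachon 346 (54.5%) and in Tinaja 286 (45.0%). Only 114 loci (17.95%, interval 15.0 to 21.2) were broad in all 3 morphs. The largest class was broad in surface alone, with 175 loci (27.6%, interval 24.1 to 31.2), followed by 103 in Pachon alone (16.2%) and 84 in Tinaja alone (13.2%). Surface and Pachon shared 71 loci, the caves shared 58 without surface, and surface and Tinaja shared 30.

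The step that set loci aside acted unevenly on these classes. Among all broad H3K27me3 loci, 483 were broad in all 3 morphs, and 23.6% of them remained, whereas 81.8% of the 214 broad in surface alone remained. Of the 715 loci set aside, 463 (64.8%) met broad H3K4me3 in the caves only and 252 (35.2%) met it in surface. The surface list held 513 broad H3K4me3 domains, against 935 in Pachon and 1310 in Tinaja. Before this step, 885 loci were broad in surface, 955 in Pachon and 836 in Tinaja, so the lead of surface among the 635 loci appeared with the removal of broad H3K4me3. The H3K4me3 lists used in this step differed in length. With all lists cut to the shortest of their mark, 730 loci were found, 178 broad in surface alone and 79 in both caves only. The part of list length in the lead of surface was not tested.

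Most of these domains were a few kilobases wide. The median locus measured 4697 bp, with quartiles of 4247 and 5343 bp. Broad domains of surface fish had a median of 4688 bp, those of Pachon 4608 bp and those of Tinaja 4651 bp. A width of 6000 bp or more was reached by 88 loci, 8000 bp or more by 19 and 10000 bp or more by 7. Broad loci set aside for H3K4me3 had a median of 5101 bp.

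**Figure D1:**
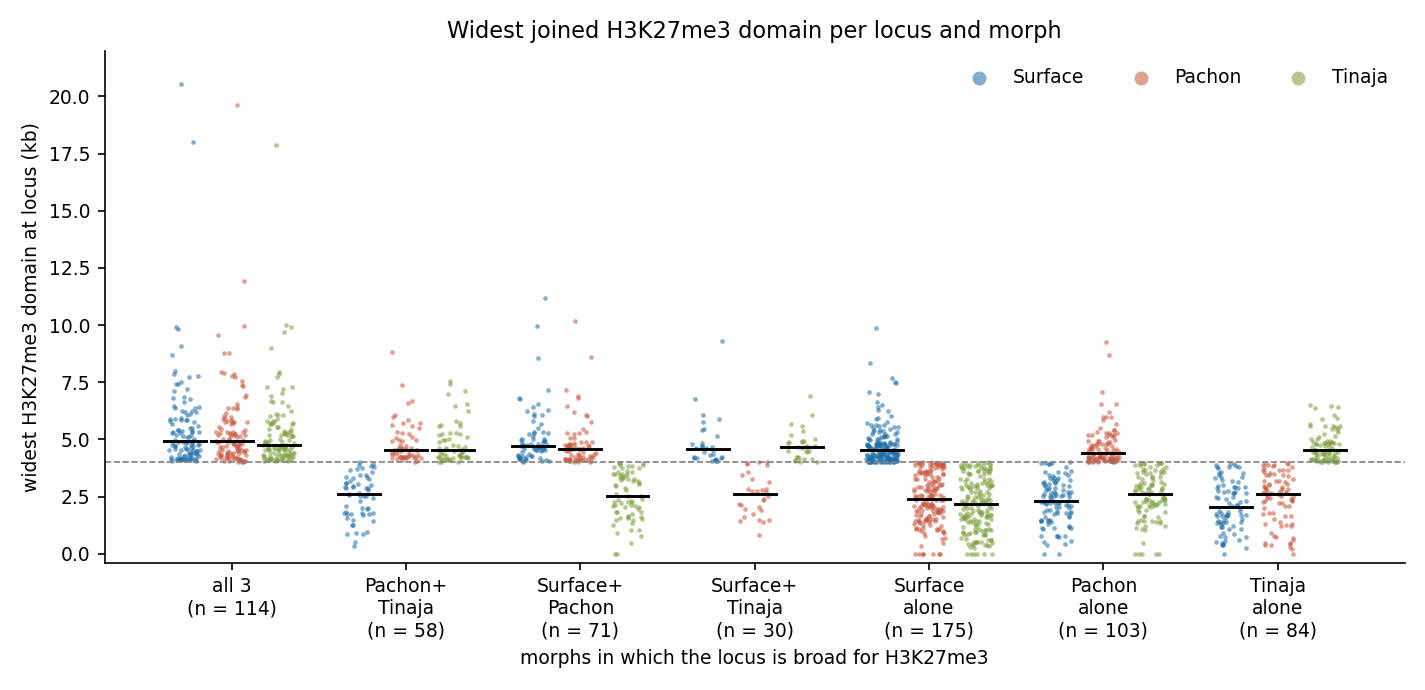
The widest joined H3K27me3 domain at each locus in each morph, in kb, with loci grouped by the morphs in which they are broad. Each point is 1 locus, black lines are medians and the dashed line is the 4 kb threshold. Loci broad in surface alone have medians of 2408 bp in Pachon and 2153 bp in Tinaja, so the missing morphs lie below the line but mostly well above 0.

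A locus that was broad in 1 morph was as a rule marked, but more narrowly, in the others. At the 175 loci broad in surface alone the widest domain had a median of 4516 bp in surface, 2408 bp in Pachon and 2153 bp in Tinaja. At 67 of them (38.3%) at least 1 cave had a domain of 3000 bp or more, and at 9 (5.14%) both caves were under 1000 bp. Loci broad in Pachon alone had medians of 2300 bp in surface and 2608 bp in Tinaja, with 3 of 103 under 1000 bp in both other morphs. Loci broad in Tinaja alone had medians of 2035 bp in surface and 2630 bp in Pachon, with 8 of 84 under 1000 bp in both. At the 58 loci broad in both caves, surface domains had a median of 2601 bp.

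Values next to the threshold show how fine the division is. On chromosome 6, from 41069731 to 41073730, the domain measured 4000 bp in surface, 3809 bp in Pachon and 3882 bp in Tinaja and counts as broad in surface alone. On chromosome 16, from 1356901 to 1360911, widths of 3996, 2450 and 3933 bp left the region outside. On chromosome 23, from 24300999 to 24304993, widths were 3994, 3802 and 3840 bp and the region was likewise outside. On chromosome 11, from 8846831 to 8850830, the surface domain also measured 4000 bp, but Pachon had 1068 bp and Tinaja 1034 bp. The widest domain was under 4500 bp at 250 of the 635 loci, and 503 regions without broad H3K4me3 had a widest domain from 3500 bp to just under the threshold.

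The domains, built by joining peaks at most 1 kb apart, were mostly rows of several listed peaks rather than single peaks. The joining allows gaps and limits them to 1 kb, so the values below describe the lists as joined. A broad domain held a median of 4 peaks in every morph, with up to 23 in surface, 22 in Pachon and 14 in Tinaja. A single peak made up the whole domain in 4 of 392 surface domains, 3 of 349 in Pachon and 2 of 289 in Tinaja. Peaks covered a median of 67.8% of a surface domain, 66.7% of a Pachon domain and 64.7% of a Tinaja domain, and the gaps between them had medians of 495, 507 and 551 bp.

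Over all 635 loci, 73.0% of the bases under an H3K27me3 peak of surface or Pachon were under peaks of both. The same share was 68.4% for surface and Tinaja and 73.5% for the caves, and it was higher where all morphs were broad. At loci broad in all 3, it was 84.8% for surface and Pachon, 83.9% for surface and Tinaja and 84.7% for the caves. At loci broad in surface alone it was 68.7% for surface and Pachon and 61.2% for surface and Tinaja, beside 70.5% for the caves, neither of which was broad there. Width of H3K27me3 in these same lists set the classes, so this difference between classes is in part set by construction and is a description only.

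H3K4me3 was frequent at these loci in pieces shorter than a broad domain. An H3K4me3 peak was present at 398 loci in surface (62.7%, interval 58.8 to 66.5), against 14.9% of all H3K27me3 loci. In Pachon it was present at 493 (77.6%, 74.2 to 80.8), against 19.8%, and in Tinaja at 593 (93.4%, 91.2 to 95.2), against 45.3%. Wide loci meet a peak more readily, so bases are the better measure. By this measure 15.2% of locus bases lay under H3K4me3 peaks in surface, compared with 25.9% in Pachon and 32.6% in Tinaja. With equal lists these were 15.2%, 25.3% and 26.2%, with both caves above surface and Pachon and Tinaja close to each other. Equal lists do not equalise bases, and the part of list length in this order was not tested.

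This cover was lower than in narrower H3K27me3 loci of 2 to 4 kb and lower than in the broad loci set aside. Loci of 2 to 4 kb had 20.9%, 38.8% and 48.4% of their bases under H3K4me3 in surface, Pachon and Tinaja. Those set aside had 45.9%, 72.3% and 72.0%. The removal of broad H3K4me3 lowers the value by construction, and the difference is a description only. Over the whole span of the lists, H3K4me3 covered 2.59%, 3.28% and 5.80% of bases. The share in the 635 loci was 5.85, 7.91 and 5.63 times as high.

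H3K27ac was scarce at the loci in surface and more frequent in the caves. A peak was present at 86 loci in surface (13.5%, interval 10.98 to 16.5), against 8.04% of all H3K27me3 loci. In Pachon 183 loci had one (28.8%, 25.3 to 32.5), against 15.0%, and in Tinaja 326 (51.3%, 47.4 to 55.3), against 25.6%. Among loci of 2 to 4 kb the shares were nearer, at 11.9%, 21.6% and 49.8% in surface, Pachon and Tinaja. With equal lists they were 11.9%, 18.1% and 37.3%, and those of the 635 loci 13.5%, 23.5% and 39.7%. By bases, 2.65% of the loci lay under H3K27ac in surface, compared with 5.78% in Pachon and 10.3% in Tinaja. Surface thus stood at 0.79 times the share of the whole span, Pachon at 1.395 times and Tinaja at 1.99 times. With equal lists the cover was 2.65%, 5.17% and 8.20%, in the same order.

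**Figure D2:**
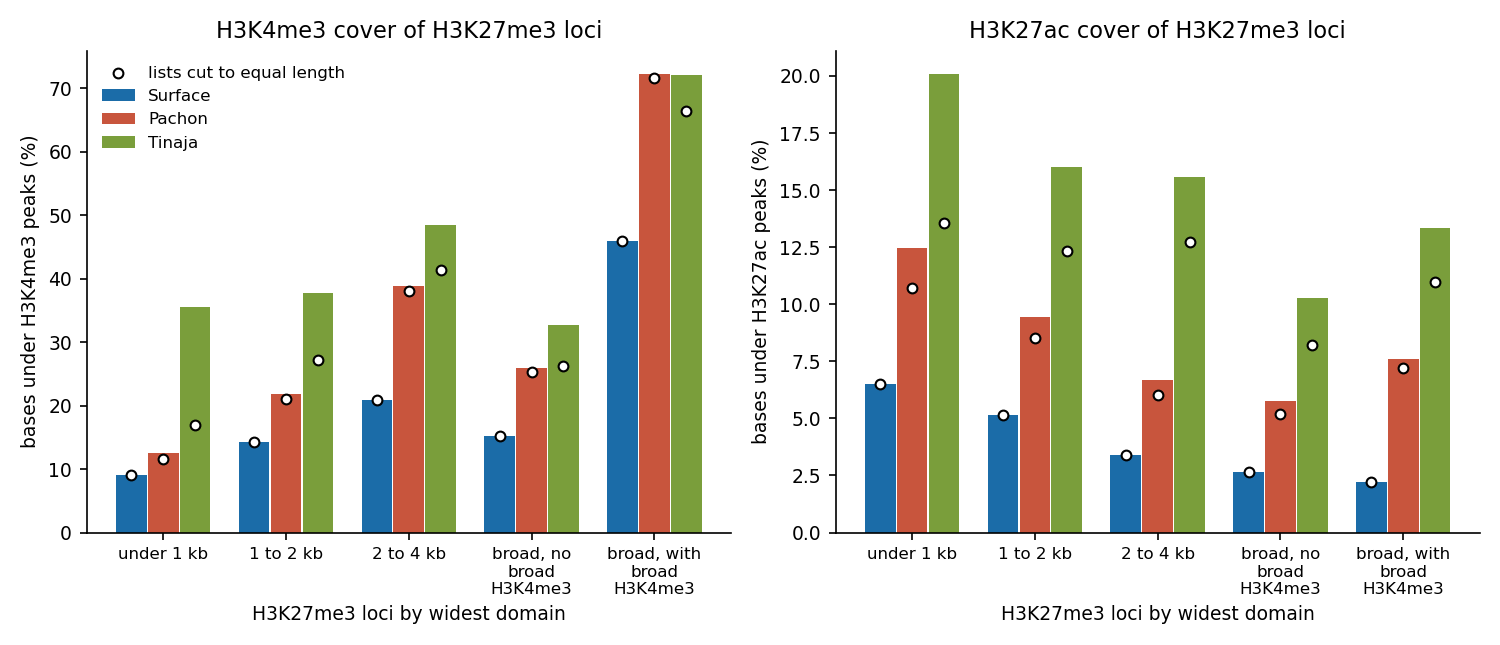
Percent of bases under H3K4me3 (left) and H3K27ac (right) in H3K27me3 loci grouped by their widest domain, with broad loci split by the presence of broad H3K4me3. Bars are the full lists of each morph and open circles the lists of a mark cut to equal length. H3K27ac cover in surface falls from 6.53% in loci under 1 kb to 2.65% in the broad loci without broad H3K4me3.

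H3K27ac covered a smaller part of the broad loci without broad H3K4me3 than of narrower H3K27me3 loci in all 3 morphs. In surface the cover was 6.53% in loci under 1 kb, 5.16% from 1 to 2 kb, 3.39% from 2 to 4 kb and 2.65% in these broad loci. Pachon gave 12.5%, 9.44%, 6.66% and 5.78% in the same order, and Tinaja 20.1%, 16.0%, 15.6% and 10.3%. With equal lists Tinaja gave 13.5%, 12.3%, 12.7% and 8.20%, so there the fall was not even, while these broad loci remained lowest. Loci set aside for broad H3K4me3 had 2.21% in surface, 7.61% in Pachon and 13.3% in Tinaja. In the caves they thus held more H3K27ac than the broad loci without broad H3K4me3. In Pachon they also stood above the 6.66% of loci from 2 to 4 kb, and with equal lists at 7.19% against 6.04%. Narrower loci were not filtered for broad H3K4me3. The parts of width and of the removal of broad H3K4me3 in the lower H3K27ac cover were not tested.

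Few loci were free of active marks, and H3K27ac in surface without either cave was rare. No H3K4me3 or H3K27ac peak of any morph was present at 17 loci (2.68%, interval 1.57 to 4.25), against 45.2% of all H3K27me3 loci, most of which are narrow. Among loci of 2 to 4 kb the share was 421 of 6007 (7.01%). H3K27ac was present in all 3 morphs at 82 loci (12.9%), against 6.46%, and in both caves but not surface at 87 (13.7%), against 6.36%. Loci of 2 to 4 kb had these patterns at 10.1% and 9.09%, nearer to the values of the 635 loci. These shares are of full lists. With equal lists the 635 loci had H3K27ac in all 3 morphs at 77 (12.1%) and in both caves but not surface at 55 (8.66%). The reverse, H3K27ac in surface and in neither cave, was found at 0 of 635 loci (interval 0 to 0.58%), against 0.557% of all H3K27me3 loci. The interval includes that share, and with equal lists 3 loci had this pattern. H3K4me3 without H3K27ac was the most frequent combination in surface, at 330 loci, and in Pachon, at 342. In Tinaja both marks together were more frequent, at 319 loci, than H3K4me3 alone, at 274. With equal lists this order turned, with 227 loci with both and 277 with H3K4me3 alone in Tinaja, while Pachon had 125 and 359.

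Inside the broad domains, active marks covered a larger part of the bases under H3K27me3 peaks than of the gaps between them. In surface domains, H3K4me3 covered 23.4% of the bases under H3K27me3 peaks and 1.91% of the gap bases. The values were 38.1% and 4.11% in Pachon, and 50.99% and 2.12% in Tinaja. The gap value was above the share of the whole span in Pachon and below it in surface and Tinaja. H3K27ac also covered more under peaks, with 5.06% under peaks and 0.58% in gaps in surface, 5.95% and 1.08% in Pachon, and 14.2% and 0.89% in Tinaja. In the broad loci set aside, the ratio of peaks to gaps was smaller for H3K4me3, at 4.80, 2.89 and 4.07 against 12.3, 9.27 and 24.03 in the loci described here. Broad H3K4me3 split these sets, so this difference is in part set by construction and is a description only.

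The flanks of the loci were poor in active marks over about 1 kb. From 500 to 1000 bp outside the edge, H3K4me3 covered 0.27% of bases in surface, 0.41% in Pachon and 0.86% in Tinaja, each below its share of the whole span. H3K27ac covered 0.78%, 1.37% and 1.46% there, against 3.33%, 4.15% and 5.15% over the whole span. The scarcity of H3K27me3 in the first 1 kb follows from the joining. Its part in the low cover of the active marks there, which within the loci covered more under H3K27me3 peaks than in gaps, was not tested. From 2000 to 5000 bp outside, H3K4me3 stood at 2.33%, 3.40% and 6.08%, near its share of the whole span. H3K27ac stood at 2.67%, 3.77% and 4.66% there, still below it. Flanks of the loci set aside were less depleted, with H3K4me3 at 1.35%, 2.73% and 2.52% from 500 to 1000 bp outside. A broad H3K4me3 domain that set a locus aside can run past its edge, so this difference is a description only. H3K27me3 itself stood at 9.16%, 9.01% and 8.78% from 2000 to 5000 bp outside, above the 3.94%, 4.01% and 4.04% of the whole span.

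**Figure D3:**
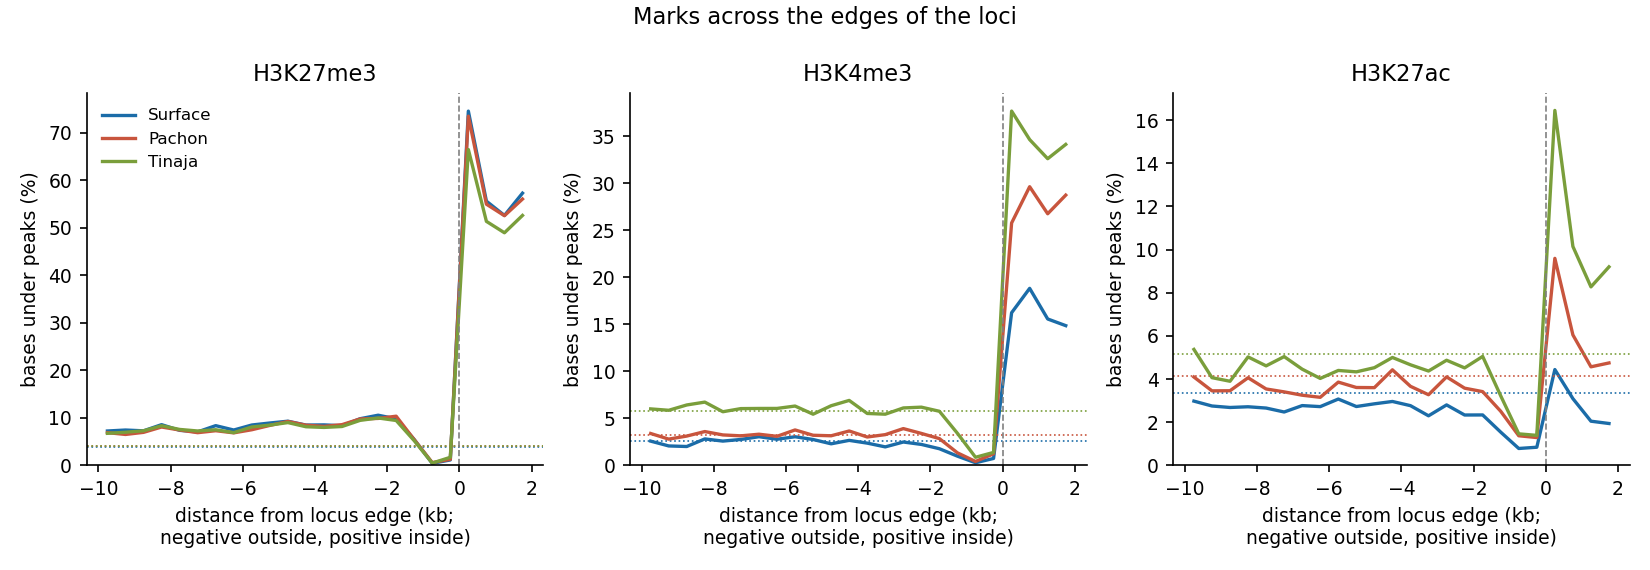
Percent of bases under peaks of each mark by distance from the edge of the 635 loci, in bins of 500 bp, with negative distances outside and positive ones inside. Dotted lines give the share of each list over the whole span and the dashed line is the edge. H3K27ac cover is highest in the first 500 bp inside the edge, at 4.44% in surface, 9.59% in Pachon and 16.4% in Tinaja, which is where a locus by construction begins or ends with an H3K27me3 peak.

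H3K4me3 cover in surface fish was highest at loci broad in surface alone, with 21.5%, and at those shared by surface and Pachon, with 19.2%, against 10.5% at those shared by surface and Tinaja. At loci broad in surface alone it covered 21.5% of bases in surface, 26.1% in Pachon and 31.4% in Tinaja. At loci broad in Pachon alone it covered 13.3%, 32.8% and 35.4%, at those broad in Tinaja alone 14.7%, 29.4% and 39.2%, and at those broad in both caves 12.3%, 32.7% and 39.2%. Loci broad in all 3 morphs had the least, with 9.06%, 17.5% and 26.9%. The removal of broad H3K4me3 took 369 of 483 loci of that class and 39 of 214 of the class broad in surface alone, and its part in these levels was not tested. With equal lists, loci broad in surface alone had 21.5%, 25.6% and 25.4%, and those broad in both caves 12.3%, 32.0% and 30.9%.

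Shares in this paragraph are of the loci of a class with an H3K4me3 peak in at least 1 of the lists used. With full lists Tinaja had the highest H3K4me3 cover at most such loci of every class. Its share ran from 60.4% of those broad in surface alone (102 of 169) to 92.6% of those broad in surface and Tinaja (25 of 27). The shares led by the other morphs varied with the class. Surface had the highest cover at 32 of 169 loci with H3K4me3 that were broad in surface alone (18.9%, interval 13.3 to 25.7). It did so at 2 of 100 broad in Pachon alone, 1 of 80 broad in Tinaja alone and 1 of 56 broad in both caves. Pachon had the highest cover at 36 of 100 such loci broad in Pachon alone (interval 26.6 to 46.2), against 35 of 169 broad in surface alone (14.9 to 27.6). With equal lists Tinaja led at 45.9% of such loci broad in surface alone, 48.9% of those broad in Pachon alone and 45.3% of those broad in both caves, where Pachon led at 26 of 53. Surface then led at 36 of 159 such loci broad in surface alone, 4 of 94 broad in Pachon alone and 3 of 71 broad in Tinaja alone.

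H3K27ac cover was higher at loci broad in surface than at the others in surface fish, and lower at loci broad in Pachon than at the others in Pachon. In surface, 70 of 390 loci broad in surface had an H3K27ac peak (17.9%), against 16 of 245 loci not broad there (6.53%). Cover was 3.54% and 1.09%. In Pachon the cover was 4.28% at loci broad in Pachon and 7.79% at the others, with a peak at 25.7% and 32.5% of loci. In Tinaja it was 9.29% and 11.1%, with 52.1% and 50.7% of loci. Equal lists gave 3.73% and 7.09% in Pachon and 6.93% and 9.33% in Tinaja. A locus not broad in a morph entered only through a broad domain of another morph, so these values describe the classes and were not tested.

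**Figure D4:**
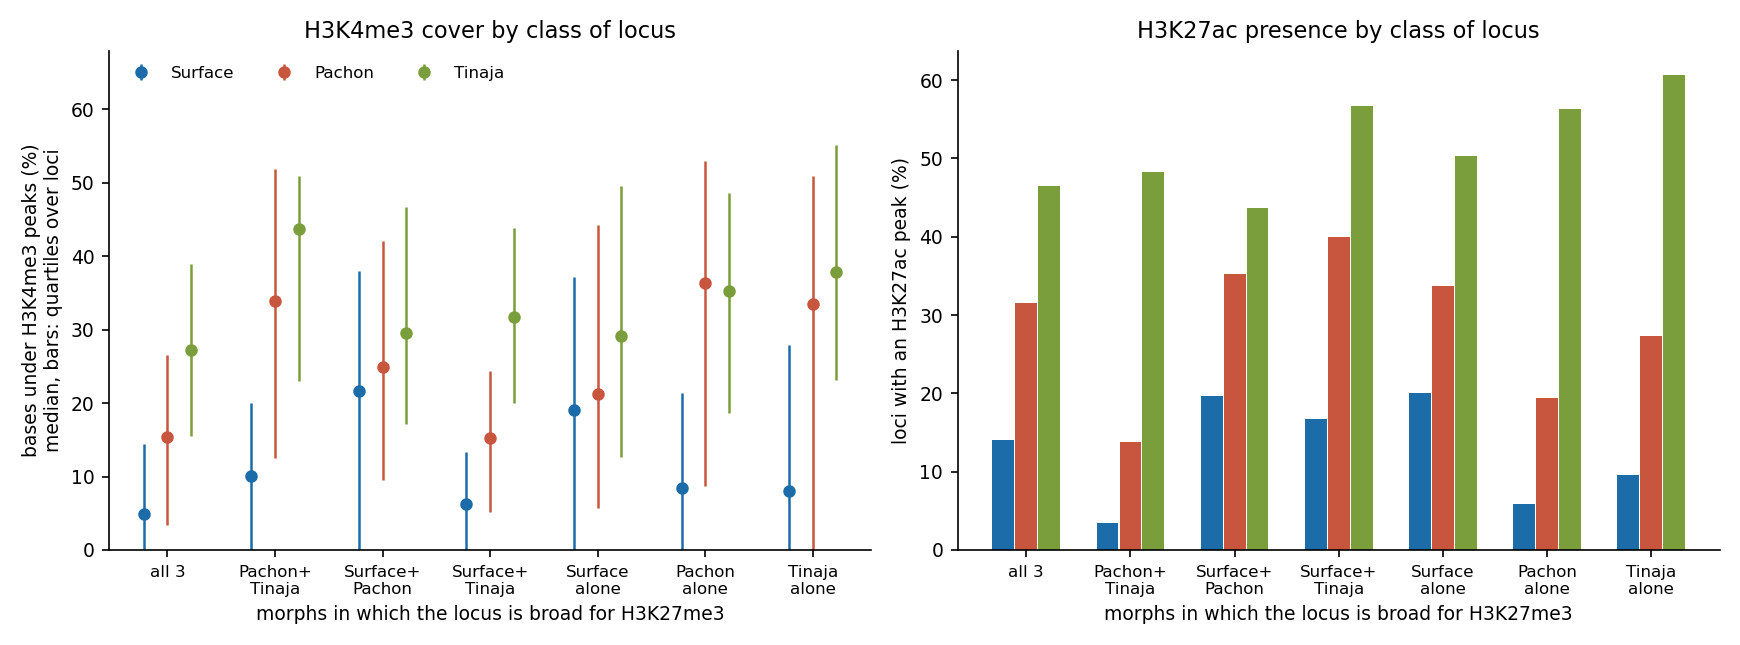
H3K4me3 cover of a locus in percent of bases (left, median with quartiles over loci) and share of loci with an H3K27ac peak (right), by the morphs in which the locus is broad for H3K27me3. Median H3K4me3 cover in surface is 19.1% at loci broad in surface alone and 8.43% at those broad in Pachon alone, and an H3K27ac peak of surface is present at 35 of 175 and 6 of 103 of these loci.

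Placed loci broad in all 3 morphs were ranked by the smallest of their 3 domain widths, and those that led differed in active marks. A locus on chromosome 23, from 27857136 to 27871327, was wider, at 14192 bp, but was not among them. On chromosome 25, from 32016865 to 32026849, domains measured 9933 bp in surface, 9977 bp in Pachon and 9925 bp in Tinaja. H3K27me3 covered 58.1%, 56.6% and 56.2% of it, H3K27ac 64.3%, 53.8% and 54.5%, and H3K4me3 29.7%, 23.8% and 36.6%, with many peaks of the 3 marks at the same places. On chromosome 18, from 17790918 to 17800746, domains measured 9829, 9557 and 9710 bp. H3K27ac covered 8.63%, 11.1% and 14.3% there, and H3K4me3 was at 0% in surface, 4.32% in Pachon and 17.5% in Tinaja. On chromosome 22, from 4292922 to 4300891, the locus had domains of 7970, 7902 and 7937 bp and neither active mark in surface, while in Pachon H3K4me3 covered 17.6% and H3K27ac 14.0%. On chromosome 24, from 9580636 to 9588566, domains of 7871, 7931 and 7840 bp likewise had neither in surface, and 25.7% H3K4me3 in Tinaja.

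At other loci broad in all 3 morphs the active marks were high or absent throughout. On chromosome 10, from 31547227 to 31552764, H3K4me3 covered 60.8% in surface, 70.8% in Pachon and 77.2% in Tinaja with no H3K27ac, and H3K27me3 covered 89.1%, 79.99% and 81.3%. On chromosome 12, from 3855346 to 3861231, domains of 5886, 5825 and 5737 bp carried no active peak in any morph. A locus on chromosome 6, from 42072401 to 42077820, was also free of both, with H3K27me3 over 41.9%, 35.2% and 44.1% of its bases. Among the 80 placed loci broad in all 3 morphs, 3 had no active peak in any list.

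Loci broad in 2 morphs included large differences in width. On chromosome 20, from 11908812 to 11916208, the domain measured 2673 bp in surface, 7397 bp in Pachon and 7110 bp in Tinaja, and H3K4me3 covered 26.4%, 71.3% and 47.7%. H3K27ac was at 0% in surface there, 16.8% in Pachon and 12.3% in Tinaja. On chromosome 17, from 6930194 to 6936875, widths of 2434, 6682 and 6467 bp came with 10.8%, 33.2% and 27.2% H3K4me3 and with 0%, 28.8% and 12.99% H3K27ac. Both active marks covered more of these loci in the caves, whereas H3K27me3 cover at the first was 57.7% in surface, 73.9% in Pachon and 53.6% in Tinaja.

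The widest placed locus shared by surface and Pachon, on chromosome 7 from 31222879 to 31233747, went the other way. Its widest domain measured 9943 bp in surface, 4002 bp in Pachon and 2102 bp in Tinaja. H3K4me3 covered 46.5% in surface, 0% in Pachon and 4.98% in Tinaja. On chromosome 13, from 20662670 to 20669853, domains measured 7167, 7179 and 3170 bp, but H3K27me3 still covered 81.9% in Tinaja against 85.1% and 87.5%. Surface and Tinaja shared a locus on chromosome 3, from 24524367 to 24533655, with 9289 bp, 2841 bp in Pachon and 4927 bp, and no H3K27ac in any morph. They also shared 1 on chromosome 25, from 27864798 to 27871676, with 6747, 3923 and 6879 bp.

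Among the widest loci broad in 1 morph, the part of the bases marked in the other morphs varied. On chromosome 16, from 5129481 to 5137839, the surface domain of 8359 bp stood against 3900 and 3899 bp, while H3K27me3 covered 57.8%, 52.2% and 46.5%. On chromosome 15, from 10958482 to 10967735, Pachon had 9254 bp against 2272 bp in surface and 2144 bp in Tinaja, and H3K27me3 covered 29.98%, 56.9% and 24.8% in surface, Pachon and Tinaja. H3K4me3 covered 14.6%, 57.5% and 46.3% of that locus. On chromosome 21, from 3385621 to 3392712, the Pachon domain of 7092 bp had no active peak in surface or Pachon. The widest loci of Tinaja alone were on chromosome 16, from 26097634 to 26104109, with 3524, 3800 and 6476 bp, and on chromosome 12, from 3258453 to 3264870, with 1629, 2523 and 6418 bp.

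**Figure D5:**
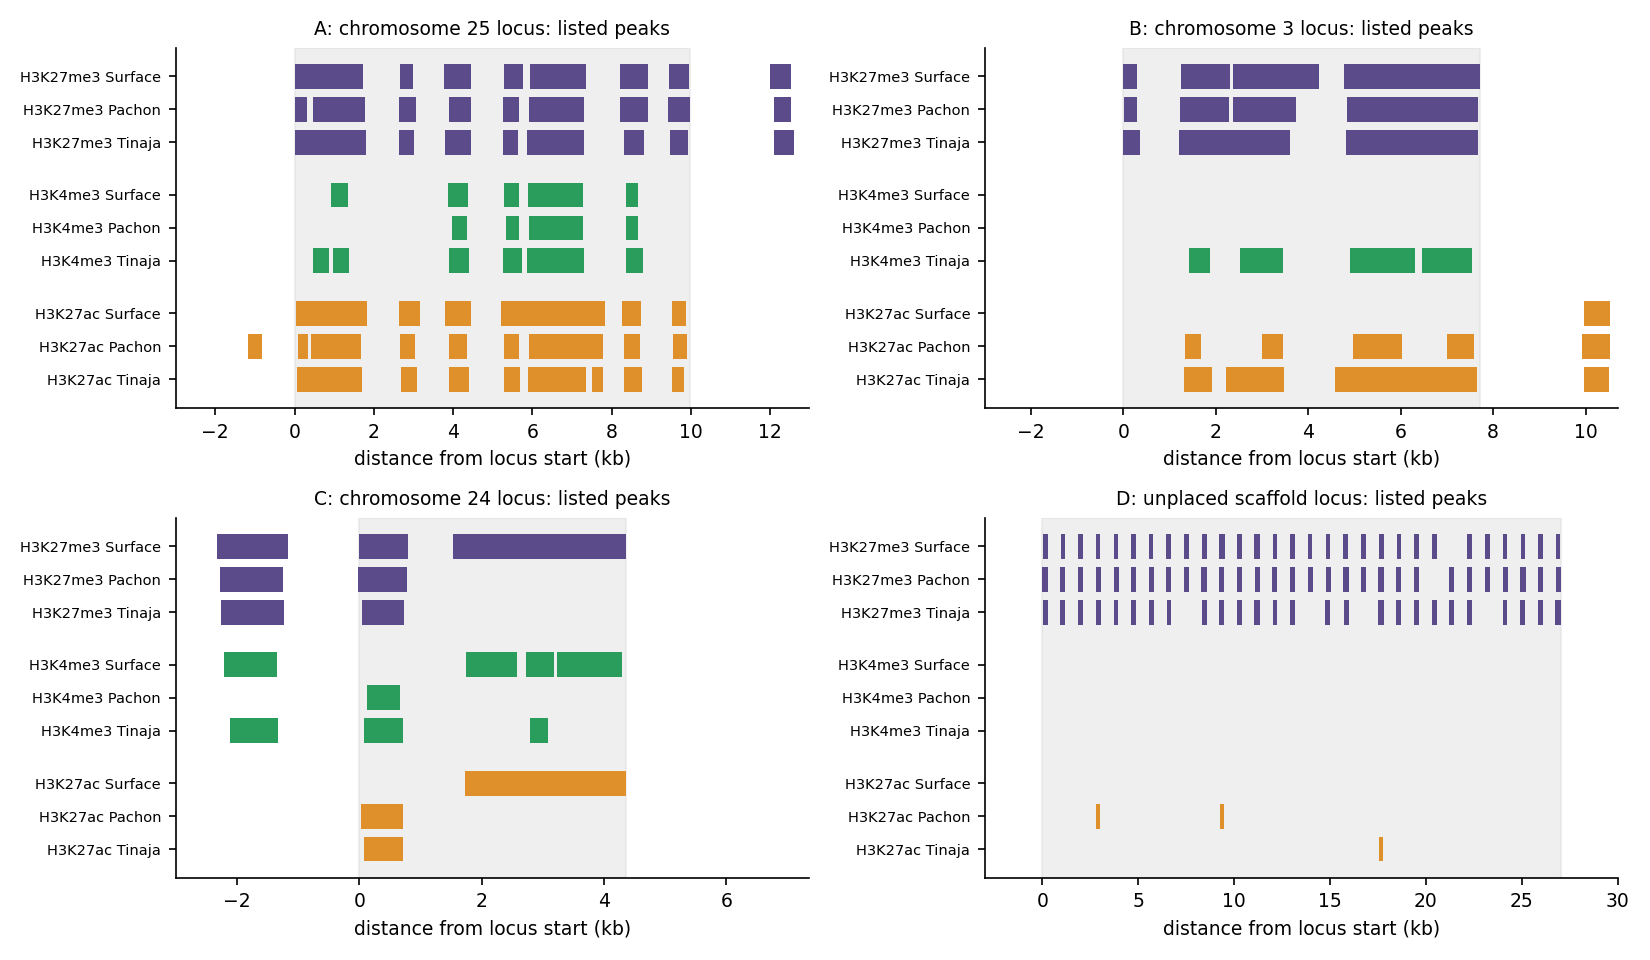
Listed peaks of the 3 marks in the 3 morphs at 4 loci, by distance from the start of the locus in kb, with the locus shaded. In A most peaks of the 3 marks coincide, in B H3K27ac covers 0% in surface, 31.7% in Pachon and 64.0% in Tinaja, in C all marks cover most in surface, and in D H3K27me3 peaks recur at an even step in every morph.

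More loci had higher H3K4me3 cover in both caves than had higher cover in surface, as was also the case among all H3K27me3 loci. H3K4me3 cover was at least 10 percentage points higher in both caves than in surface at 249 loci (39.2%, interval 35.4 to 43.1), against 11.5% of all H3K27me3 loci. It was at least 10 points higher in surface than in both caves at 28 loci (4.41%), against 1.86%. With equal lists the counts were 219 (34.5%), against 7.73%, and 34 (5.35%), against 3.22%. Most of all H3K27me3 loci are narrow and meet H3K4me3 less often. With full lists the broad loci set aside gave 64.2% higher in both caves and 5.03% higher in surface. The parts of width and of the removal of broad H3K4me3 in these shares were not tested. By class, 38 of 58 loci broad in both caves had H3K4me3 higher in the caves by this measure, beside 43 of 175 broad in surface alone. Of the 28 loci with H3K4me3 higher in surface, 18 were broad in surface alone. With equal lists these counts by class were 33 of 58, 36 of 175 and 23 of 34. Removal of broad H3K4me3 took 114 of 172 loci broad in both caves and 39 of 214 broad in surface alone. Its part in this contrast of classes was not tested.

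H3K27ac cover was at least 10 points higher in both caves at 62 loci (9.76%, interval 7.57 to 12.3), against 8.07% of all H3K27me3 loci, a share near the background. It was higher in surface at 1 locus (0.16%), against 0.831%. With equal lists the counts were 53 (8.35%), against 5.07%, and 3 (0.47%), against 1.31%. On chromosome 3, from 65507026 to 65514732, H3K27ac was at 0% in surface, 31.7% in Pachon and 64.0% in Tinaja. H3K27me3 covered 79.9%, 71.7% and 73.1% of that locus, so H3K27ac in the caves lay on a region still listed for H3K27me3. On chromosome 15, from 3718758 to 3723095, H3K27ac covered 2.28%, 35.4% and 59.96%, H3K4me3 0%, 8.76% and 64.9%, and H3K27me3 69.0%, 52.5% and 29.5%.

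At some loci with high H3K27ac in every morph, chosen after their values were seen, H3K27me3 was much lower in Tinaja, and at others it was not. On chromosome 19, from 22316211 to 22320222, H3K27ac covered 71.7% in surface, 72.9% in Pachon and 77.1% in Tinaja. H3K27me3 covered 64.0%, 59.3% and 6.51% of that locus. On chromosome 9, from 17514988 to 17519083, H3K27ac covered 57.1%, 65.4% and 65.9% and H3K27me3 69.1%, 57.96% and 56.8%.

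The single locus with H3K27ac higher in surface lay on chromosome 24, from 44029547 to 44033899, and had all 3 marks higher in surface. H3K27me3 covered 82.8% in surface, 17.8% in Pachon and 15.5% in Tinaja. H3K4me3 covered 53.9%, 12.4% and 21.1%, and H3K27ac 60.5%, 15.9% and 14.8%. H3K4me3 was listed in surface alone on chromosome 3, from 12960899 to 12965666, over 55.2% of the locus, and on chromosome 25, from 20197312 to 20202113, over 49.1%. Neither had H3K27ac in any morph. H3K27me3 covered 71.4%, 32.7% and 52.8% of the first and 69.4%, 28.5% and 20.6% of the second.

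A few loci carried no peak of any mark in a morph. There were 3 in surface (0.47%), against 31.3% of all H3K27me3 loci, 3 in Pachon (0.47%), against 28.0%, and 8 in Tinaja (1.26%), against 21.4%. Most of all H3K27me3 loci are narrow. Of those under 1 kb, 60.0% had an H3K27me3 peak in surface, 60.4% in Pachon and 62.2% in Tinaja. The part of width in this contrast was not tested. On chromosome 24, from 36871483 to 36875574, H3K27me3 covered 95.1% in surface and 42.2% in Pachon and H3K4me3 79.0% and 75.6%. Tinaja had no peak there, nor within 13395 bp to the left and 20855 bp to the right. On chromosome 6, from 22966945 to 22971133, Pachon had 73.1% H3K27me3 and 67.4% H3K4me3, surface had 46.8% H3K27me3, and Tinaja had no peak over 35.1 kb around the locus.

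Other loci lacked all marks in 2 morphs. On chromosome 20, from 9547487 to 9551721, Pachon had 66.1% H3K27me3 and 52.8% H3K4me3, and surface and Tinaja had no peak over 30.6 and 28.6 kb. On chromosome 3, from 52660177 to 52664455, surface had 74.7% H3K27me3 and 36.3% H3K4me3, and both caves had no peak over 29.0 kb in Pachon and 28.9 kb in Tinaja. Total chromatin was not analysed here, and whether the sequence of these stretches is present and mappable in the morph without peaks was not tested. A value of 0% at these loci says only that no peak was listed.

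The loci were spread over all placed chromosomes and seldom adjoined each other. Chromosome 3 held 43, chromosome 24 held 29 and chromosome 25 held 26, while chromosome 11 held 2. Per 1000 H3K27me3 loci of any width, the number ran from 1.82 on chromosome 11 to 6.83 on chromosome 3. The median distance to the nearest other locus on a placed chromosome was 590 kb, and 21 of 417 (5.04%, interval 3.14 to 7.60) had another within 10 kb. A broad locus with broad H3K4me3 lay within 10 kb of 6 (1.44%, interval 0.53 to 3.11). Among narrower placed H3K27me3 regions of 2 to 4 kb, 89 of 3769 (2.36%, 1.90 to 2.90) had one of the 417 within 10 kb, and 37 (0.98%, 0.69 to 1.35) had a broad locus with broad H3K4me3 there.

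A pair of stretches of 1 Mb, chosen after the counts were seen, held the most loci. On chromosome 18, from 17000001 to 18000000, there were 6, of which 5 lay between 17757368 and 17810091, and none of the 715 set aside. All 6 were broad in surface, 5 in Pachon and 3 in Tinaja. Within that cluster, the locus from 17763490 to 17767902 had 28.9% H3K27ac in surface, 48.7% in Pachon and 46.9% in Tinaja. The locus from 17802984 to 17810091 had no H3K27ac in any morph and H3K4me3 only in Tinaja, at 5.61%. On chromosome 24, from 44000001 to 45000000, there were 5, including the locus with all marks higher in surface.

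The 2 widest loci lay on unplaced scaffolds. The widest, of 27026 bp, was a row of 29 H3K27me3 peaks in surface, 29 in Pachon and 26 in Tinaja, at a median step of 922, 923 and 928 bp. The coefficient of variation of the step was 0.0097, 0.0079 and 0.016, counting a skipped place as several steps. The peaks had a median width of 252 bp in surface, 272 bp in Pachon and 263 bp in Tinaja, and H3K4me3 was absent. A second unplaced locus, of 8602 bp, had the same regularity, with steps of 925, 926 and 924 bp. Among the 18 loci with 8 peaks or more in a list, these 2 were the only ones with a variation under 0.1 in all 3 morphs. The next widest locus, of 18025 bp, started at the first base of its scaffold and was covered by H3K27me3 over 95.9% in surface, 72.5% in Pachon and 70.4% in Tinaja, with 4.20% of its bases under H3K4me3 in surface, 0% in Pachon and 7.06% in Tinaja.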

How the data were processed

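Chromatin of adult liver from surface, Pachon and Tinaja fish was sequenced in 26 libraries, 20 immunoprecipitates and 6 of total chromatin. Tools named in the submitters' processing notes are Bowtie2, MACS2, SAMtools and bcl2fastq 2.20. Their settings, the other versions, the build and the pooling of replicates are not stated there or in the labels. As deposited by the authors, the data are 9 peak lists, each with the start and end of a peak in bases and a score of 0 for every peak, which was not used. Without heights, depth is unknown.

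Peaks were joined, merged and filtered as stated in the report, with overlap of 1 bp or more. Cover is the percent of a locus' bases under peaks. Positions count from 1. The gene table at hand (AstMex3_surface) ends at 134 Mb on chromosome 1 and the lists at 27.0 Mb, so no gene or sequence was assigned. The whole span is the sum of last peak ends, 1310 Mb. On placed chromosomes the rule named the first 4 loci broad in all morphs, ranked by the smallest of their domain widths, and the 2 widest of every other class. Among those broad in all morphs it also named the 2 with most active cover and the 2 widest without any. It further named the 2 with the largest spread of each active mark, and loci at the threshold. Others were chosen after their values were seen. Members and lists were chosen with earlier results of these data known. No test was run, since each group has 1 pooled list. Interval arithmetic was tested on simulated data. Alternatives changed the joining distance, width, peaks used, scaffolds, list length and overlap. Python 3.11.15, NumPy 2.4.6, pandas 2.3.3, SciPy 1.17.1 and Matplotlib 3.10.9 were used.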

Additional observations from a re-analysis of the deposited data

How the results depend on the processing

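The number of loci, the number broad in both caves and not in surface and the number broad in surface alone were 635, 58 and 175. Without joining they were 25, 1 and 11, with joining at 2 kb 3289, 286 and 681, and with a width of 6000 bp for both marks 144, 16 and 47. In the wider 50% of each list 414 loci were found, 25 of them broad in both caves only, and on placed chromosomes 417 and 35. The share broad in all 3 morphs was 0% without joining and 13.9% at 6000 bp. Without joining, cover by H3K4me3 was 40.9% in surface, 63.8% in Pachon and 60.9% in Tinaja, so the order of the caves turned. At 2 kb it covered 5.83%, 9.87% and 17.2%, and at 6000 bp 18.7%, 31.4% and 37.6%. In Tinaja it was 26.2% when only the cover used equal lists. H3K27ac covered 0.23%, 3.09% and 6.50% without joining, and in Tinaja 7.76% with joining at 2 kb and 7.08% in the wider 50%. Surface stayed below both caves for both marks in every setting named here. Equal lists throughout gave 730 loci and a 50% overlap with broad H3K4me3 gave 636. Equal lists for cover and combinations only, and leaving out the 2 evenly spaced loci, were alternatives chosen after seeing the data. The cause of these shifts was not tested. No paired analysis was possible because each morph and mark has 1 pooled list, and for the same reason no replicate could be left out. Depth is unknown, so absence from a list is not absence of a mark.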
